A study of Mus musculus with 12 samples.

Results

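The genes described here are the mouse zinc finger genes whose symbols run in the Zfp900 series. They were taken by symbol alone (Zfp9 followed by 2 digits) from the protein-coding genes of RefSeq GRCm38.p6, the assembly that mm10 names. The rule found 62 genes among 21887 on 13 chromosomes. The rule uses no measured value. No protein sequence was used here, so the KRAB domain that the series is known for was not checked gene by gene.

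The data are ChIP-seq peak lists of spermatogenic cells from mouse testes at postnatal day 18, all on a mixed strain background. One list is H2A.Z in Ino80cKO cells, in which Stra8-Cre deleted Ino80, and another is H2A.Z in Ino80WT cells. The third is INO80 itself in wild-type cells. Each of the 3 ChIP groups has 2 libraries and its own group of 2 input libraries, 12 libraries in all. Stra8-Cre acts in germ cells from the premeiotic stages on, so cells that had not yet made the recombinase, and any somatic cells in the suspension, would still carry Ino80; their number was not measured here. Each list stands for both libraries of a group and gives positions only. No value therefore has a replicate error, the depth is unknown, and every comparison below is a description without a test. A peak on one list and not on another can differ little in strength. The lists hold 26199 knockout H2A.Z peaks, 33827 wild-type H2A.Z peaks and 18139 INO80 peaks. As a check of the labelled cells, the germ cell genes Ddx4, Dazl and Dmc1 held H2A.Z at an end in both genotypes and Stra8 and Sycp3 in neither, while the Sertoli cell genes Sox9, Wt1 and Amh held it in both and the Leydig cell genes Insl3, Cyp17a1 and Hsd3b1 in neither. INO80 lay at 4 of these 5 germ cell genes, at 3 of 3 Sertoli cell genes and at 1 of 3 Leydig cell genes. Its widest peaks among them were 5468 bp at Insl3 and 4432 bp at Sox9. Of all protein-coding genes, 58.5% held H2A.Z in both genotypes and 54.5% held INO80. A peak does not measure expression, so these peaks neither show nor deny the presence of a cell type.

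KRAB zinc finger proteins bind DNA through arrays of C2H2 zinc fingers, and their KRAB domain recruits TRIM28, which brings SETDB1, HP1 proteins and H3K9 methylation to the bound site. Many of them silence transposable elements in the germ line and early embryo. Their genes lie in clusters that grew by repeated duplication, so neighbouring copies can be nearly identical in sequence. H2A.Z is a histone variant found in nucleosomes beside transcription start sites, and INO80 is the ATPase of a remodelling complex that slides nucleosomes and can exchange H2A.Z.

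Most of the Zfp900-series genes carried H2A.Z, and few carried INO80. A peak was assigned to a gene when it came within 1 kb of either annotated end. Knockout H2A.Z lay at 41 of 62 members (66.1%, Wilson 95% interval 53.7 to 76.7%), against 59.2% of all protein-coding genes. Wild-type H2A.Z lay at 47 of 62 (75.8%, 63.8 to 84.8%), against 62.6% of all genes. INO80 lay at 12 of 62 (19.4%, 11.4 to 30.9%), against 54.5% of all genes. The other 332 genes with numbered Zfp symbols held knockout H2A.Z at 84.6%, wild-type H2A.Z at 86.7% and INO80 at 64.8%. The intervals cover counting error only, and the members are a complete list that shares sequence and position, so they are not independent draws.

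The difference was largest among genes that carried H2A.Z. All 12 members with INO80 also had wild-type H2A.Z, but they made up only 12 of the 47 members with it (25.5%). The share was 213 of 288 (74.0%) for the other numbered Zfp genes and 83.8% for all genes. The other 35 members had H2A.Z without INO80. The widest peak at these 35 had a median of 600 bp in the knockout (30 members) and 705 bp in the wild type. For all members with a peak the medians were 626 bp in the knockout and 719 bp in the wild type, and for all genes 671 and 805 bp. Among the 18 members whose wild-type peak spanned 700 to 899 bp, 5 held INO80 (27.8%), whereas 83.9% of all genes with such a peak did. In the range of 900 to 1199 bp the numbers were 3 of 7 members and 92.8% of all genes.

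**Figure D1:**
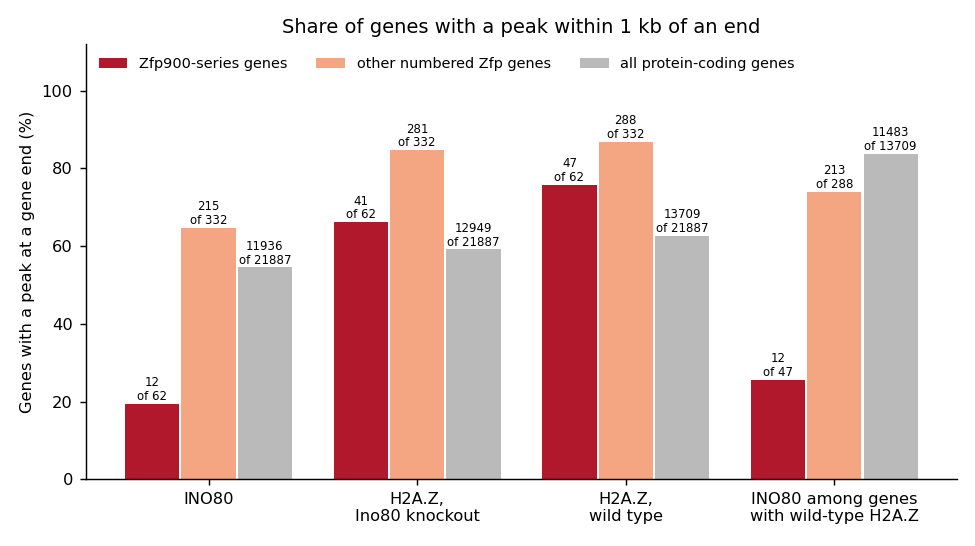
Percentage of genes with a peak within 1 kb of either annotated end, for the 62 Zfp900-series genes, the other 332 numbered Zfp genes and all 21887 protein-coding genes; the counts stand above the bars, and the last group is restricted to genes with wild-type H2A.Z. INO80 lay at 19.4% of the members and at 25.5% of those with wild-type H2A.Z, against 54.5% and 83.8% of all genes.

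The 12 members with INO80 lay in 3 of the clusters described below and at 5 genes outside them. Zfp996 on chromosome 12 had by far the widest INO80 peak of the group (chr12:18386790-18388744, 1955 bp), which covered the start of the gene. Next came Zfp957 on chromosome 14 with 879 bp (chr14:79213121-79213999), at the 3 prime end of the gene, far from its start. Zfp942 and Zfp943 on chromosome 17 are transcribed away from each other, with annotated ends 56 bp apart, and a single INO80 peak of 756 bp (chr17:21962165-21962920) lay over both. Zfp944, on the same chromosome, had a peak of 677 bp (chr17:22361097-22361773), also shared with a head-to-head neighbour, Zfp758. Zfp961 and Zfp964 on chromosome 8 had peaks of 600 and 468 bp, and Zfp949 on chromosome 9 one of 540 bp. On chromosome 4 Zfp982 had 558 bp and Zfp978 463 bp. The 2 narrowest peaks, 259 bp at Zfp939 on chromosome 7 and 171 bp at Zfp963 on chromosome 8, were well under the median of 844 bp over all genes with INO80. The median of the 12 members was 579 bp. Zfp959 was not counted, since its narrow INO80 peak (180 bp) lay within 1 kb of its listed start but not of an annotated end.

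The peaks sat at gene starts. The RefSeq promoter table gives the strand and start of 55 of the 62 members. Of the 37 with knockout H2A.Z at an end, 37 had it within 1 kb of the start, as did 41 of 43 with wild-type H2A.Z and 10 of 11 with INO80. The centre of the widest peak lay a median of 94.5 bp into the gene for knockout H2A.Z, 77 bp for wild-type H2A.Z and 144.5 bp for INO80. Over all 17492 genes with a listed start the medians were 140.5, 119.5 and 198.5 bp, again largest for INO80. Each median covers its own set of genes, and single members differed. Within the same member, the INO80 centre lay upstream of both H2A.Z centres at Zfp942, Zfp964 and Zfp982. At Zfp944 it lay upstream of the knockout centre and downstream of the wild-type centre. The INO80 centre lay downstream of both at Zfp939, Zfp943, Zfp949, Zfp961, Zfp963 and Zfp996. Zfp942 and Zfp943 are a single locus here, since they share the same peaks, read from opposite strands. At Zfp949 the INO80 peak ran from 138 to 677 bp inside the gene and the knockout and wild-type H2A.Z peaks ended at 658 and 643 bp. At Zfp961 it ran from 26 to 625 bp inside the gene, while wild-type H2A.Z (834 bp) reached from -566 bp to 267 bp, counted from the start.

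**Figure D2:**
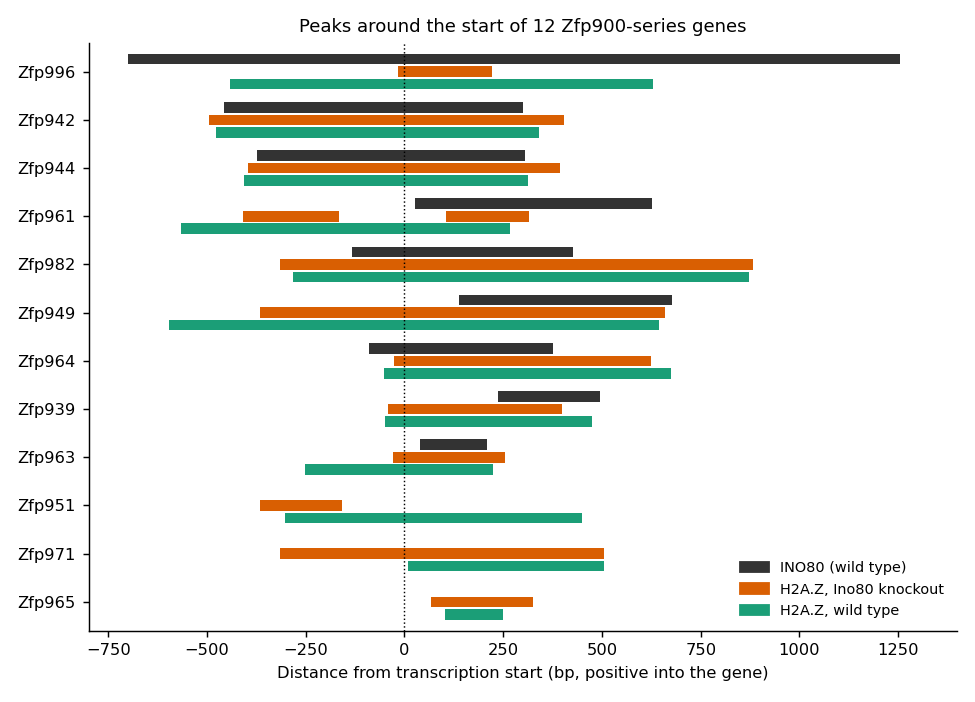
Extent of each peak, in bp from the transcription start (dotted line, positive into the gene), at 9 members with INO80 and 3 without it; bars are INO80 (black), knockout H2A.Z (orange) and wild-type H2A.Z (green). Zfp996 has an INO80 peak of 1955 bp around a knockout H2A.Z peak of 237 bp and a wild-type one of 1070 bp, and the single wild-type peak of Zfp961 faces 2 knockout peaks.

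Promoters of members with INO80 held more CpG dinucleotides. In the 300-base window from 250 bases before to 50 after the start, the 11 members with INO80 and a listed start had a median of 20 CpGs and a range of 4 to 25. The 32 with H2A.Z but no INO80 had a median of 8 (3 to 16), and the 12 without H2A.Z in either genotype a median of 5 (3 to 11). These classes were set at the annotated ends and the CpGs counted at the listed start. Of the 12, Zfp976 (10 CpGs) and Zfp984 (9 CpGs) had H2A.Z of both genotypes at that start, and of the 32, Zfp959 (14 CpGs) had INO80 there. Over all genes the same 3 classes had medians of 22, 10 and 3. All members together had a median of 8 CpGs, the other numbered Zfp genes 15 and all genes 13. Every member with 20 or more CpGs held INO80 (6 of 6: Zfp996, Zfp964, Zfp944, Zfp943, Zfp961 and Zfp942), against 5580 of 5877 genes (94.9%) with wild-type H2A.Z and as many CpGs. Under 20 CpGs, 5 of 37 members with wild-type H2A.Z held INO80 (13.5%), against 103 of 155 other numbered Zfp genes (66.5%) and 70.8% of all genes. Zfp957 is among these 5, and its INO80 peak is not at the promoter. The 3 members on chromosome 17 in the CpG-rich group are not 3 separate cases, since Zfp942 and Zfp943 share a single INO80 peak and the promoters of Zfp942 and Zfp944 are near-copies.

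**Figure D3:**
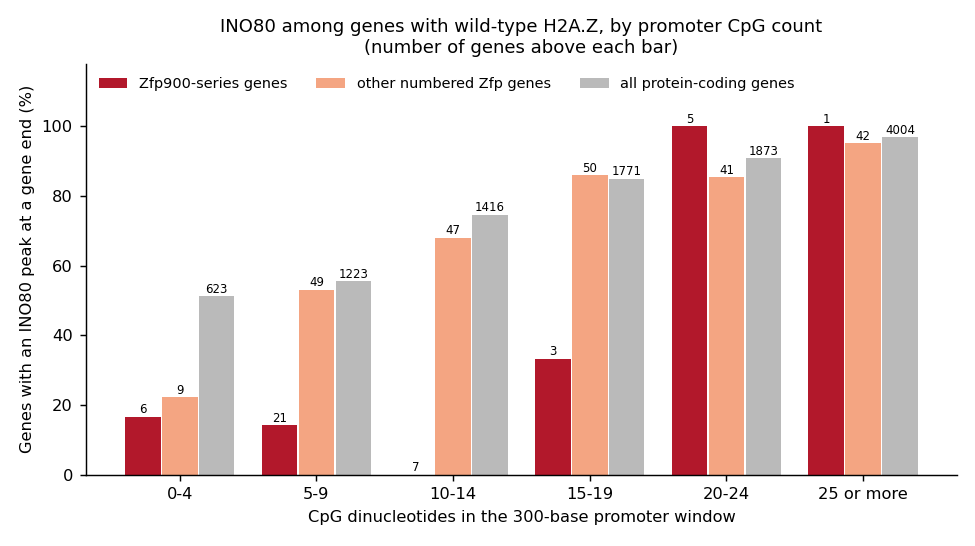
Percentage of genes with an INO80 peak at an end, among genes with wild-type H2A.Z, by the number of CpG dinucleotides in the 300-base promoter window; the number of genes stands above each bar. Below 20 CpGs the Zfp900-series bars lie below those of both other groups, and at 20 or more all 6 members have INO80.

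The promoters of 8 members are printed here in letters, and they do not show the full spread. Those with INO80 all belong to the CpG-rich group. Members with INO80 and few CpGs in the window, Zfp957 (4), Zfp949 (6), Zfp939 (8) and Zfp963 (9), are not printed. Nor are Zfp956 and Zfp974, which had H2A.Z without INO80 and 16 CpGs each. The printed stretches are the 250 bases before the start, from RefSeq GRCm38.p6. They run 5 prime to 3 prime on the strand of the gene, with each CpG in capitals. The first 3 held INO80, at chr12:18387241-18387490 (plus strand, 22 CpGs), chr8:69654306-69654555 (plus strand, 16) and chr8:71950816-71951065 (plus strand, 15).
Zfp996: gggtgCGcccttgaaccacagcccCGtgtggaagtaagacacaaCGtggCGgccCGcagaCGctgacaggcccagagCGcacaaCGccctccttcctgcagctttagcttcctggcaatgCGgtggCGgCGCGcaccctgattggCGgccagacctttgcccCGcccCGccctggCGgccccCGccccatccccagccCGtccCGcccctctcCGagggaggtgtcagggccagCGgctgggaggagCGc
Zfp964: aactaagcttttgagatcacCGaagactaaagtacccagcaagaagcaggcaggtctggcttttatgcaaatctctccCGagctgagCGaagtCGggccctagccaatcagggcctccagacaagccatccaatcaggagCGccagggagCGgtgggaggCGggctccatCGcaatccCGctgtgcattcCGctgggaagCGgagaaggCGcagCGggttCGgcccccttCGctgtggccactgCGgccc
Zfp961: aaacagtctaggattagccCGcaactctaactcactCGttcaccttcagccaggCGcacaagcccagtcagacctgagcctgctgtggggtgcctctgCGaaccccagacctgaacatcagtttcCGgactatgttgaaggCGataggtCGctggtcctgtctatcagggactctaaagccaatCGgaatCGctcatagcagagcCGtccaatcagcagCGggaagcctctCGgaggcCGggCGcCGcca
The next 2 had H2A.Z in both genotypes and no INO80, at chr5:104860069-104860318 (minus strand, 6 CpGs) and chr2:178023034-178023283 (plus strand, 2).
Zfp951: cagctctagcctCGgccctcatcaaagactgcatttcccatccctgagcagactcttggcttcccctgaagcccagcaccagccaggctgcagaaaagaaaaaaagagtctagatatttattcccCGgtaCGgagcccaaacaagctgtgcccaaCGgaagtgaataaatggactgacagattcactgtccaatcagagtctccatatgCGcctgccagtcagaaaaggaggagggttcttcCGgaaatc
Zfp971: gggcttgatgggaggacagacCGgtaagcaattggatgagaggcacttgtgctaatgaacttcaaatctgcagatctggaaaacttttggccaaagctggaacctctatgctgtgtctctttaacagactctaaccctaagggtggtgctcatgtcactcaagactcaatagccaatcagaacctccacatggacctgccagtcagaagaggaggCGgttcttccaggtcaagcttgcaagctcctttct
Zfp965 (chr2:175469775-175470024, plus strand, 4 CpGs) and Zfp973 (chr2:176670272-176670521, plus strand, 3) are near-copies, and one run of 210 bases is the same in both printed stretches.
Zfp965: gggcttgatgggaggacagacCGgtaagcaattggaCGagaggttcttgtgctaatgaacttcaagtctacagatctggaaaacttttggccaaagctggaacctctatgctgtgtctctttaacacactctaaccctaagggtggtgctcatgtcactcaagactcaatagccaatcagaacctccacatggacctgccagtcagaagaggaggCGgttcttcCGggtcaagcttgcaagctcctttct
Zfp973: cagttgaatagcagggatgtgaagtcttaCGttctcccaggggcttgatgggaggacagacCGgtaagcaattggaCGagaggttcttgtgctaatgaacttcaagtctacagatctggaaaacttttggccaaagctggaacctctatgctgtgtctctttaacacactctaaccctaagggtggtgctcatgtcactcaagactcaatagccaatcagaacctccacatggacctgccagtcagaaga
Zfp979 (chr4:147642509-147642758, minus strand, 2 CpGs) had H2A.Z in the wild type alone.
Zfp979: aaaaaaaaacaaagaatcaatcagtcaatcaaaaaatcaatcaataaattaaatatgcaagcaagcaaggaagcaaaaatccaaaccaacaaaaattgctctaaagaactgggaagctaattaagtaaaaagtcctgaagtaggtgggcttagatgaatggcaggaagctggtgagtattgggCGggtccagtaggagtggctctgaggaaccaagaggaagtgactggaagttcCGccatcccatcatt

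Short motifs were searched on both strands of the 300-base windows, as letters only. The classes were again set at the annotated ends. Zfp976 and Zfp984, with H2A.Z at the listed start, therefore count as without H2A.Z. Zfp957 counts as with INO80, though its INO80 peak is not at the promoter. CCAAT, the core bound by NF-Y, was in 42 of 55 member promoters (76.4%), against 44.2% of the other numbered Zfp promoters and 39.2% of all 17492. It was in 6 of 11 members with INO80, 25 of 32 with H2A.Z alone and 11 of 12 without H2A.Z. Over all genes the same 3 classes had 37.7%, 44.9% and 39.8%. CCGGAAG, an ETS factor motif, was in 14 of 55 (25.5%, against 11.9% of all). By class it was in 0 of 11 members with INO80, 10 of 32 with H2A.Z alone and 4 of 12 without H2A.Z. For all genes these shares were 16.9%, 16.2% and 3.17%. GGGCGG, bound by SP and KLF factors, was in 20 of 55 (36.4%, against 46.3% of all). It was the one found more often with INO80, in 7 of 11 against 7 of 32 with H2A.Z alone. Over all genes GGGCGG was in 68.7% with INO80 and 42.6% with H2A.Z alone. It was also in 6 of the 12 members without H2A.Z at an annotated end (all genes 14.9%). Among these was Zfp984, which had H2A.Z at its listed start. CCATNTT, a YY1 motif, was in 10 of 55 (18.2%, against 15.4% of all), and GCGCATG, an NRF1 motif, in 0 of 55 (4.88% of all). Several of these promoters are copies of one another, so the counts do not stand for independent promoters. Matches of different motifs may share bases and were counted separately.

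Members lying within 1 Mb of each other were joined, which gave 5 clusters of 3 or more genes holding 40 members, with the other 22 outside them. At the annotated ends, the share of members with H2A.Z was lower in 4 of the 5 clusters than outside them, and lowest on chromosome 4. For chromosome 7 the lower share depends on the use of annotated ends. There Zfp976 and Zfp936 had H2A.Z of both genotypes at their listed starts, as had Zfp984 on chromosome 4. Knockout H2A.Z lay at 4 of 9 members on chromosome 2, 4 of 14 on chromosome 4, 2 of 4 on chromosome 7, 3 of 3 on chromosome 8 and 8 of 10 on chromosome 17. Wild-type H2A.Z lay at 6, 6, 3, 3 and 8 of them in the same order. Outside the clusters, knockout H2A.Z lay at 20 of 22 members, wild-type H2A.Z at 21 and INO80 at 5. Zfp934 was the one of these 22 without any peak. Outside members included Zfp932, a repressor of endogenous retroviruses, with knockout and wild-type H2A.Z peaks of 772 and 856 bp and no INO80.

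The chromosome 2 cluster (chr2:175372034-178078425, 2706 kb) held 9 members and no INO80 peak at any of them. Knockout H2A.Z lay at 4 members and wild-type H2A.Z at 6. Zfp971 had knockout and wild-type peaks of 822 and 496 bp, Zfp970 463 and 468 bp, Zfp931 386 and 486 bp, and Zfp965 257 and 147 bp. Zfp973 (286 bp) and Zfp972 (176 bp) had a wild-type peak alone. Zfp966, Zfp967 and Zfp968 had no peak. The widest wild-type peak here, 496 bp, was narrower than the median of all members.

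The chromosome 4 cluster (chr4:145510759-147849126, 2338 kb) was the largest, with 14 members. Knockout H2A.Z lay at 4 of them, wild-type H2A.Z at 6 and INO80 at 2. Its H2A.Z peaks ranged from 271 to 1197 bp in the knockout and from 194 to 1154 bp in the wild type, and 8 members had none. Zfp982 had knockout and wild-type H2A.Z peaks of 1197 and 1154 bp and Zfp978 peaks of 1033 and 1020 bp, and these were the 2 members with INO80. Zfp991 (737 and 746 bp) and Zfp933 (271 and 270 bp) had H2A.Z in both genotypes without INO80. The knockout and wild-type widths of these 4 were close to each other. Zfp985 (228 bp) and Zfp979 (194 bp), known as Ssm1b for its part in methylating a transgene in the embryo, had a wild-type peak alone. The other 8, Zfp980, Zfp981, Zfp984, Zfp987, Zfp988, Zfp990, Zfp992 and Zfp993, had no peak at an end. For Zfp984 the listed start lies 2441 bp inside the annotated gene, and there it had H2A.Z peaks of 821 bp in the knockout and 755 bp in the wild type.

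The clusters on chromosomes 7, 8 and 17 were smaller. On chromosome 7 (chr7:42579397-43192109, 4 members) no member had INO80. Zfp975 had knockout and wild-type peaks of 675 and 780 bp, and Zfp977 183 and 484 bp. Zfp976 had none at an annotated end, but peaks of 741 and 784 bp at a start listed 1663 bp inside the gene. Zfp936 had a wild-type peak alone at its outer end (200 bp), and peaks of 704 and 670 bp at its inner listed start.

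All 3 members of the chromosome 8 cluster (chr8:69209018-69749962) had H2A.Z in both genotypes, with knockout and wild-type widths of 650 and 729 bp at Zfp964, 283 and 477 bp at Zfp963 and 689 and 844 bp at Zfp930. INO80 lay at Zfp964 and Zfp963 but not at Zfp930. On chromosome 17 (chr17:21565816-22867309, 10 members) 8 members had H2A.Z in both genotypes and 3 had INO80. At those 3, Zfp942, Zfp943 and Zfp944, the knockout peak was the wider (898 against 816 bp at the first pair, 791 against 719 bp at Zfp944). Of the 5 without INO80, 4 had a narrower knockout peak, among them Zfp946 (778 bp in the knockout, 1301 bp in the wild type) and Zfp995 (354 and 878 bp). Zfp983 had the wider peak in the knockout (641 and 581 bp). Zfp947 and Zfp994 had no peak.

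**Figure D4:**
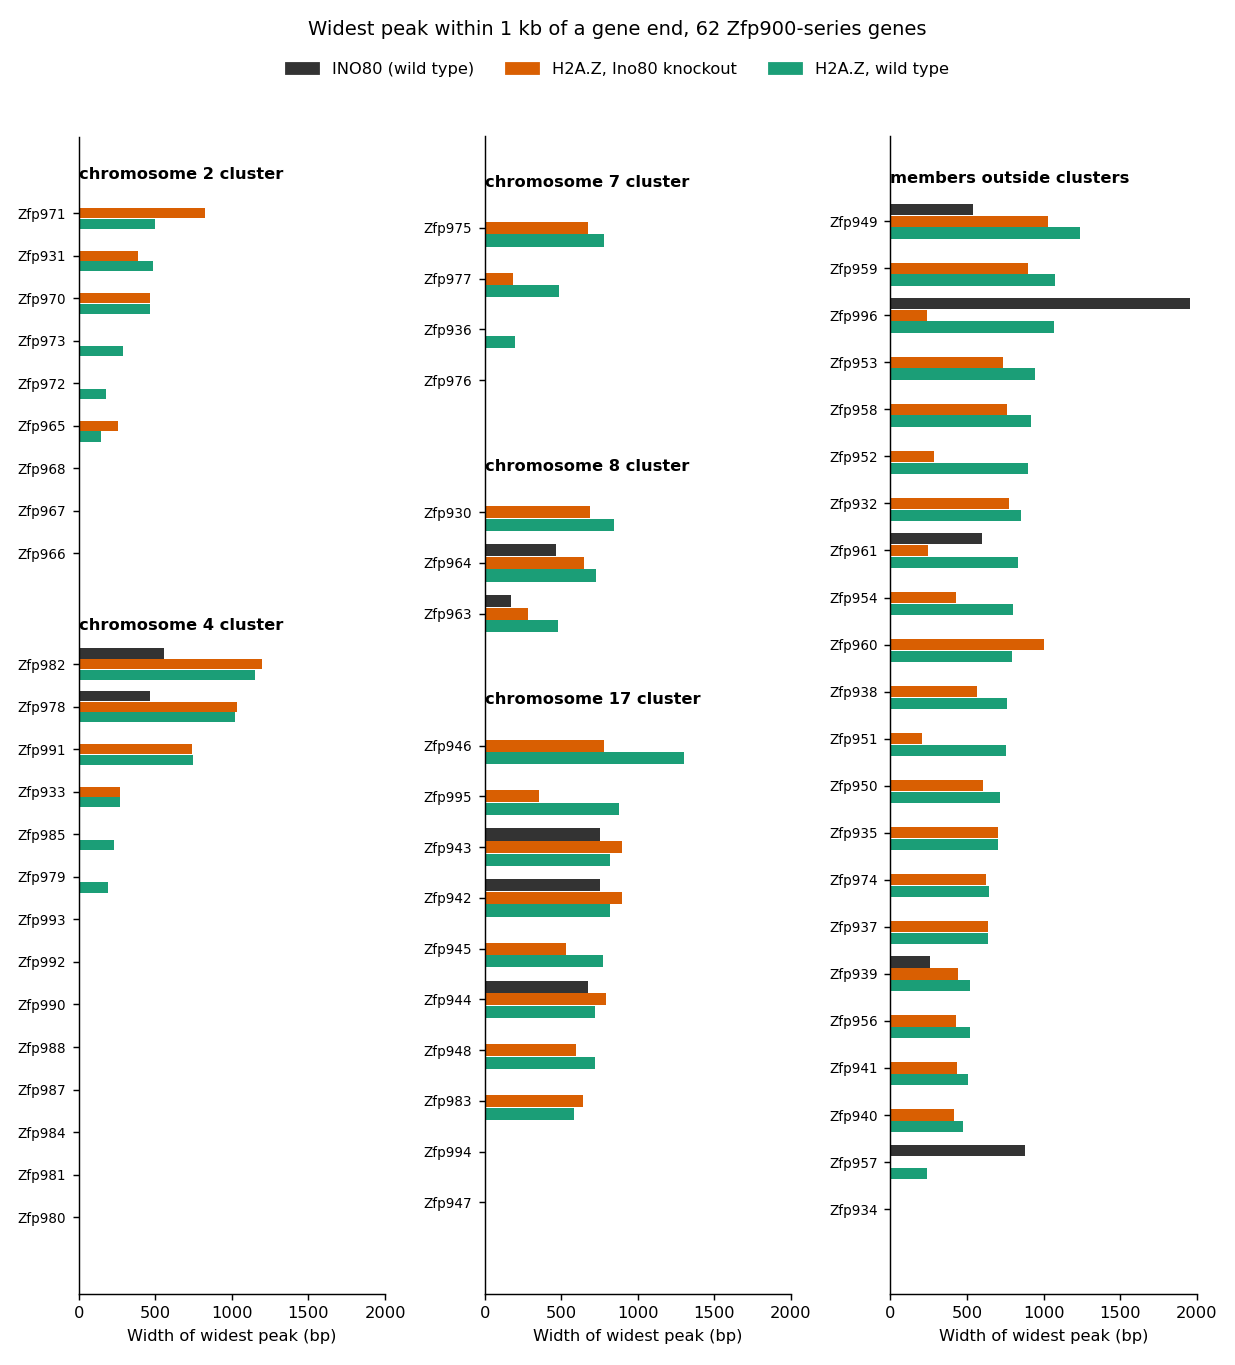
Width in bp of the widest INO80 (black), knockout H2A.Z (orange) and wild-type H2A.Z (green) peak within 1 kb of a gene end, for each of the 62 members, grouped by genomic cluster and ordered by wild-type width; no bar means no peak. Black bars appear at 12 members, and the chromosome 2 and chromosome 7 clusters have none.

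Most members with H2A.Z in the wild type also had it in the knockout. H2A.Z was present in both genotypes at 41 members (all genes 58.5%), in the wild type only at 6 (4.13%), in the knockout only at 0 (0.653%) and in neither at 15 (36.7%). INO80 lay at 11 of the 41 members with H2A.Z in both genotypes (all genes 86.5%) and at 0 of the 15 with H2A.Z in neither (all genes 4.7%). A knockout-only count of 0 among 62 independent draws would allow a share of up to 4.84%, but the members are not such draws. Of the members with wild-type H2A.Z, 6 of 47 lacked a knockout peak (all genes 6.59%). These were 1 of 12 with INO80 and 5 of 35 without it, against 3.57% and 22.1% of all genes in these classes. The 1 with INO80 was Zfp957, whose wild-type H2A.Z peak of 237 bp lay at the 3 prime end, with no peak at its start. At the start alone, 4 of the 55 members with a listed start had H2A.Z in the wild type only. The 6 wild-type-only peaks were narrow, from 176 bp at Zfp972 to 286 bp at Zfp973. Below 300 bp, 6 of 8 members lacked a knockout peak, against 39.3% of all genes, and from 300 bp upwards 0 of 39, against 3.38%. The nearest knockout peak to these 6 lay between 27868 bp (Zfp972) and 103707 bp (Zfp985) away. With the wild-type list cut by width to the length of the knockout list, 1 of the 6 was still wild type only (Zfp973), and Zfp965 became the 1 member with a knockout peak alone. Of the 6, Zfp936 had H2A.Z in both genotypes at its inner start.

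Where both genotypes had a peak, the knockout peak was usually the narrower one, as over all genes. This held for 30 of 41 members (73.2%, all genes 72%), with a median ratio of knockout to wild-type width of 0.843, against 0.895 for all genes and 0.911 for the other numbered Zfp genes. The median was 0.892 at the 11 members with INO80 and 0.838 at the 30 without it, and the knockout peak was narrower at 6 of 11 and 24 of 30 of them. Over all genes it was narrower at 71.7% with INO80 and 74.1% without. The 5 members with INO80 and a wider knockout peak were Zfp942, Zfp943 and Zfp944 on chromosome 17 and Zfp978 and Zfp982 on chromosome 4. Those on chromosome 17 are not separate cases. Zfp942 and Zfp943 share the same peaks, and the promoter of Zfp944 is a near-copy of that of Zfp942. Outside the clusters 18 of 20 members had the narrower peak in the knockout (median ratio 0.831), as had 2 of 2 on chromosome 7 (0.572) and 3 of 3 on chromosome 8 (0.816). In the clusters on chromosomes 2, 4 and 17 it was 2 of 4, 1 of 4 and 4 of 8, with median ratios of 1.28, 1.01 and 0.956.

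The lowest ratios were at Zfp996 (237 bp in the knockout, 1070 bp in the wild type, ratio 0.221), Zfp951 (209 and 753 bp, 0.278) and Zfp961 (243 and 834 bp, 0.291). At Zfp961 a second knockout peak of 210 bp partly overlapped the same wild-type peak, so that a single region in the wild type appeared as 2 in the knockout. The ratio of Zfp961 uses only the wider of these 2 peaks and would be higher with both. Both Zfp996 and Zfp961 held INO80, and Zfp951 did not. The highest ratios were at Zfp965 (257 and 147 bp, 1.75), Zfp971 (822 and 496 bp, 1.66) and Zfp960 on chromosome 17 outside the cluster (1006 and 795 bp, 1.27), none of which held INO80. The wild-type peak of Zfp965 has the smallest width in its list, 147 bp.

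**Figure D5:**
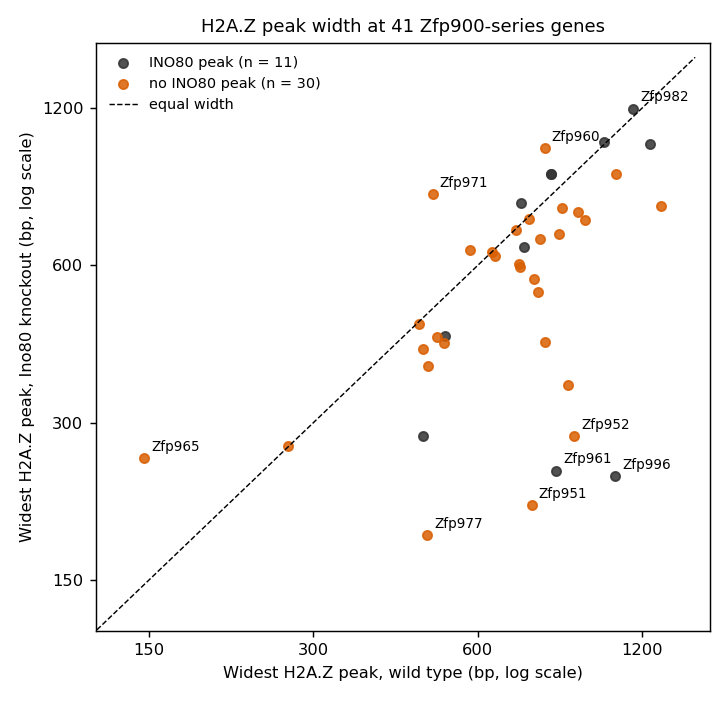
Width of the widest H2A.Z peak in the knockout (vertical) against the wild type (horizontal), both in bp on log scales, for the 41 members with H2A.Z in both genotypes, with INO80 (black, n = 11) or without it (orange, n = 30); the dashed line marks equal width. Of the 41 points, 30 lie below the line, and Zfp996, Zfp951 and Zfp961 lie farthest below it.

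Near-identical copies set a limit on these calls, since a read that fits several copies cannot be placed, and how such reads were handled by the authors is not stated. Of the 55 members with a listed start, 18 had a promoter at least 95% identical over 200 bases or more to that of another gene. Among these 18, INO80 lay at 3 and wild-type H2A.Z at 12 (66.7%), and among the 37 without such a copy at 8 (21.6%) and 31 (83.8%). Both INO80 shares were below the 54.5% of all genes, which were not filtered for copies. Promoters just under the 95% limit, such as that of Zfp984 (94.8%), count as without a copy. On chromosome 2, 8 of 9 members had such a copy. Zfp966 and Zfp967 have the same 300 bases and neither had a peak. Zfp965 and Zfp973 are identical over 260 aligned bases, yet H2A.Z was called in both genotypes at the first and in the wild type alone at the second. On chromosome 17 the promoters of Zfp942 and Zfp944 are 99.6% identical and both had INO80. Zfp951, with one of the lowest ratios, has a promoter 98.5% identical to that of Zfp33b, where the knockout and wild-type peaks were 724 and 731 bp wide. The part of read placement in these results was not tested.

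Of 17 genes of the corepressor pathway, 15 held H2A.Z in both genotypes, and all 15 held INO80, where 86.5% of all genes with H2A.Z in both genotypes did. Trim28, which encodes the corepressor that KRAB domains bind, had an INO80 peak of 828 bp and H2A.Z peaks of 478 bp in the knockout and 783 bp in the wild type. Setdb1, the H3K9 methyltransferase of the complex, had an INO80 peak of 430 bp and H2A.Z peaks of 693 bp in the knockout and 602 bp in the wild type. Dnmt1 and Tasor had no peak at an annotated end. Of 5 KRAB zinc finger genes with other numbers, Zfp445, Zfp809 and Zfp568 held INO80 and H2A.Z in both genotypes, and Zfp57 and Zfp708 had no peak.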

How the data were processed

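The deposited values are the start and end of each peak in 3 lists, 1 for each ChIP group, with no score or count. The submitters' processing notes list Bowtie2, SAMtools, deepTools and MACS2 with no version, and mm10 as the build. Roles, peak threshold, control and the way libraries were joined: not given in the sources used here. Chromatin was cut with micrococcal nuclease, per the labels' protocols, which can shape peak outlines.

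Gene ends, strands, starts and promoter sequences came from RefSeq GRCm38.p6. The outermost start was used for the 6 members with several. A peak counted when at least 1 bp lay within 1 kb of a gene end. Width served as the measure of a peak. Near-copies were found with BLAST+ 2.17.0 (blastn, e-value 1e-05). Scripts ran in Python 3.11.15 with pandas 2.3.3, numpy 2.4.6, matplotlib 3.10.9 and scipy 1.17.1. Gene calls were equal to those of bedtools 2.31.1 for 3 of 3 lists, and the assignment was tested on simulated peaks. The members and lists were chosen with earlier results of these data known. Genes named by rule are the 2 with the widest INO80 peak in each cluster, the 3 widest outside, all members with H2A.Z in 1 genotype only and the 3 highest and lowest width ratios; others were named after their values were seen. The deletion of Ino80 cannot be read from peak positions, and input libraries were not analysed here.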

Additional observations from a re-analysis of the deposited data

How the results depend on the processing

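Windows of 500 bp and 3 kb, an overlap of at least 100 bp and counting partner peaks outside the window left every count of members within 1.5 times its value. At the 3 prime end alone, 55 members gave 1 with INO80, 0 with knockout H2A.Z, 1 with wild-type H2A.Z, 0 with both, 1 with the wild type only and 54 with neither. The 3 prime counts over all genes are not given here, so these low counts do not set the members apart. With the widest 50% of each list, 4 members had INO80 (all genes 32.9%) and 23 had H2A.Z in neither genotype. INO80 then lay at 3 of 39 members with wild-type H2A.Z (7.69%), a share not given here for all genes. The 37 members without a near-identical promoter copy gave 27 with knockout H2A.Z, 31 with wild-type H2A.Z, 27 with both and 6 with neither; fewer members were counted by construction. With the wild-type list cut by width to the length of the knockout list, 1 member was wild type only (Zfp973) and 1 knockout only (Zfp965), so both counts rest on narrow peaks. The median log2 width ratio was -0.25 and ran from -0.27 (summed widths) to -0.21 (3 kb windows). Counting members with a known start, or only those whose widest peaks of both genotypes overlap, was chosen after seeing the data and moved no result by over 1.5 times. The largest gap within a cluster, 500 kb or 2 Mb in place of 1 Mb, gave 6 and 5 clusters. No paired analysis was possible because each list stands for both libraries of a group, and for the same reason no library could be left out. Unknown depth limits every absent peak.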

Other observations

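INO80 was also infrequent at the ends of other genes in the 5 clusters pooled, against 54.5% of all genes. The 5 clusters hold 41 further protein-coding genes, 22 of which had knockout H2A.Z (53.7%), 23 wild-type H2A.Z (56.1%) and 4 INO80 (9.76%). These genes are not a set unrelated to the members. Some are other numbered Zfp genes, and several have promoters near-identical to those of members, among them Gm14295, Gm10509 and Zfp758. Zfp758 shares its INO80 peak with Zfp944. The 40 members in the clusters had 21 with knockout H2A.Z (52.5%), 26 with wild-type H2A.Z (65.0%) and 7 with INO80 (17.5%). The clusters differed, and on chromosome 8 INO80 lay at 2 of 3 members and 2 of 6 other genes.

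The chromosome 2 cluster lies in a stretch of 3.36 Mb between INO80 peaks, found after the values were seen. It holds 27 knockout and 41 wild-type H2A.Z peaks and 32 protein-coding genes, 17 of them with knockout and 20 with wild-type H2A.Z at an end. On chromosomes 1 to 19 and X there are 464 stretches of at least 1 Mb between neighbouring INO80 peaks. Their median was 5 wild-type H2A.Z peaks, and the stretch at the chromosome 2 cluster had the highest number. These counts were not scaled to length, and by length this stretch ranked 36 among all 18097 stretches between neighbouring INO80 peaks. Within the cluster itself, knockout H2A.Z peaks came to 7.76 per Mb and wild-type ones to 11.8, against 9.74 and 12.6 per Mb over the genome from first to last gene. INO80 peaks came to 3.84 per Mb in the chromosome 17 cluster, 8.13 on chromosome 4, 8.16 on chromosome 7 and 11.1 on chromosome 8, against 6.74 over the genome. The 19 on chromosome 4 all overlapped H2A.Z of both genotypes, and 2 of them lay at the end of a protein-coding gene. On chromosome 7, 0 of 5 lay at such an end, on chromosome 8, 4 of 6, and on chromosome 17, 3 of 5. The reads behind copies in these clusters were not analysed here.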
